A study of Arabidopsis thaliana with 36 samples.

Results

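The 32 genes described here supply the isoprenoid precursors of the plastid, turn them into carotenoids and cut carotenoids into the precursors of hormones and volatile compounds. They were taken by their AGI locus identifiers, as a pathway set, from the 32833 genes of the deposited table, and no measured value enters the rule. The set holds 7 genes of the methylerythritol phosphate (MEP) pathway, 3 of prenyl diphosphate supply, 7 of carotene formation, 7 of xanthophyll formation, 4 carotenoid cleavage dioxygenase (CCD) genes and 4 epoxycarotenoid dioxygenase (NCED) genes. The filter on low counts kept 31 of the 32 for testing. NCED6 had 0 counts in all 36 libraries, which allows up to 3 counts in a library.

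Transcripts were measured by RNA-seq in whole Arabidopsis thaliana seedlings, 7 days old, raised at 22 °C in continuous white light with a red to far-red ratio of about 1.58. Simulated shade was the same white light with added far-red, at a ratio of about 0.02, and harvests were made just before it (0 h) and after 1 h and 8 h. The wild type (WT) was Col-0 and the mutants were hy5, pif457 and the combination hy5 pif457, each with 3 biological replicates at each time, which gives 12 groups and 36 libraries. PIF4, PIF5 and PIF7 are bHLH proteins that act in shade, whereas HY5, a bZIP protein, favours development in light. The labels name no alleles. A white-light group at 1 or 8 h was not analysed here, so shade and elapsed time cannot be told apart in any change from 0 h. A sample pools whole seedlings, so fewer cells of a type and less RNA per cell cannot be told apart either.

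Plastids build isopentenyl diphosphate through the MEP pathway, whose first enzyme, DXS, is known to limit its flux, and geranylgeranyl diphosphate synthase joins these units into the precursor shared by carotenoids, chlorophyll and tocopherols. Phytoene synthase (PSY) commits this precursor to carotenoids, desaturases and isomerases convert phytoene to lycopene, and cyclases and hydroxylases then give lutein on one branch and zeaxanthin on the other. Zeaxanthin epoxidase (ZEP) and violaxanthin de-epoxidase (VDE) run the xanthophyll cycle in opposite directions, NCED enzymes cut epoxycarotenoids on the way to abscisic acid, and CCD7 and CCD8 act in strigolactone synthesis. In Arabidopsis seedlings PSY is a known target of both PIF and HY5 proteins, which bind G-box and related elements.

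The windows of 300 bases upstream of the annotated transcript start are shown for ZEP (AT5G67030), BCH2 (AT5G52570), CYP97A3 (AT1G31800) and DXS (AT4G15560), because the first 3 are, with VDE, the xanthophyll genes with the most calls below and DXS opens the pathway. They were read from the RefSeq TAIR10.1 assembly at chr5:26757403-26757702, minus strand, at chr5:21337127-21337426, minus strand, at chr1:11396102-11396401, plus strand, and at chr4:8883525-8883824, plus strand, and each runs 5′ to 3′ on the strand of its gene. Capitals mark the G-box CACGTG, the PBE-box CACATG or CATGTG, and the ACGT core, searched on both strands; every G-box also holds an ACGT core.
ZEP: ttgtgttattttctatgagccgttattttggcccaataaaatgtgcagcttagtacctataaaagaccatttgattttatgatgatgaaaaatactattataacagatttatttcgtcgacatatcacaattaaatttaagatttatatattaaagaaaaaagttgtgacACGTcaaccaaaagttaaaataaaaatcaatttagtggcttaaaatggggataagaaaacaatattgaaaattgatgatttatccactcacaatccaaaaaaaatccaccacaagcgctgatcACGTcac
BCH2: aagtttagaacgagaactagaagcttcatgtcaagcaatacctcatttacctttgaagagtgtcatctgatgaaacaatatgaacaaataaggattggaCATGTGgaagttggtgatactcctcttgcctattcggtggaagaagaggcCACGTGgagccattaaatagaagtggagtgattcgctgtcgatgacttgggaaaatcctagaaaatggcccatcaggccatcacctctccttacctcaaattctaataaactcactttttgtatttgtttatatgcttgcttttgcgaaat
CYP97A3: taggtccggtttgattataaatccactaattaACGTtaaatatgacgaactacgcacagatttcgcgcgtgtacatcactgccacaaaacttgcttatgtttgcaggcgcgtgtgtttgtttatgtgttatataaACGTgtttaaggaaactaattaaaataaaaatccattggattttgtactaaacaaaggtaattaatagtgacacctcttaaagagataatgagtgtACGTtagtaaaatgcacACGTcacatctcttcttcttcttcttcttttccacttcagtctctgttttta
DXS: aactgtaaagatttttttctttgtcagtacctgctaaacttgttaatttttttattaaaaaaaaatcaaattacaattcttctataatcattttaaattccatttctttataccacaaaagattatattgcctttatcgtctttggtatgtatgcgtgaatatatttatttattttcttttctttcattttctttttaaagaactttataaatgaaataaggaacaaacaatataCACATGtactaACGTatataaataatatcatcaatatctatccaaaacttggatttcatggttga
The BCH2 window held both a G-box, starting 151 bases before the start, and a PBE-box, 201 bases before it. The DXS window held a PBE-box at 65 bases and an ACGT core at 54 bases. CYP97A3 had 4 ACGT cores, at 268, 165, 69 and 52 bases, and ZEP had 2, at 130 and 7 bases. Over all 32 genes a G-box was found in 3 windows (9.38%, against 7.09% of the windows of 27443 genes), a PBE-box in 7 (21.9%, against 13.1%) and an ACGT core in 17 (53.1%, against 49.0%). The other G-boxes were in MDS and NCED9, and the other PBE-boxes in HDS, HDR, CCD7, CCD8 and NCED5, while the PSY window held none of the 3 motifs. These matches describe letters in a window and were not tested as binding sites.

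Library totals ran from 30846115 to 58025421 counts. Levels are given as CPM, counts of the tested genes scaled to depth by TMM, and effects as log2 fold changes ± SE from the edgeR quasi-likelihood test, with a call at a Benjamini-Hochberg adjusted p under 0.05. HY5 transcripts were lower in hy5 than in WT at 0 h (log2 fold change -1.84 ± 0.14, adjusted p = 3.01e-10), and PIF5 (-4.26) and PIF7 (-3.38) were lower in pif457. PIF4 was not called there (log2 fold change -0.31 ± 0.20, adjusted p = 0.850), so its transcript does not check that mutation. The 12 libraries of pif457 at 8 h and of hy5 pif457 at all times held 6.01 to 11.62% of counts in 15 rRNA genes, against 0.467 to 2.63% in the other 24, so in hy5 pif457 against WT, and in pif457 at 8 h against 0 h or WT, genotype or time and rRNA share cannot be told apart. Mean log2 CPM of 19 root and 8 green tissue markers, called the root and green scores below, differed between some groups. COBL9, EXPA7, EXPA18 and the other root markers were detected in every library except NIP2;1, at 0 in 5 libraries, and CASP5, at 0 in 1.

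Few of these genes were called as changed from 0 h in WT. At 1 h 0 of 31 were called in WT, where 5.2% of all 21562 genes were, although 5 had an unadjusted p under 0.05 and DESeq2 called 2, NCED3 (1.42, adjusted p = 0.0446) and NCED5 (1.76, adjusted p = 0.0409). Fold changes were positive for 28 of 31 at 1 h, with a median log2 fold change of 0.14, against 0.024 over all genes. With WT 0 h replicate 2 left out, 1 gene was called at 1 h, BCH1 (-0.49, adjusted p = 0.0306). At 8 h 3 rose and 0 fell, against 12% of all genes called higher and 7.11% lower (19.2% in all): CCD4, ZEP and DXS (median 0.027, all genes -0.025). Only ZEP was still called without WT 8 h replicate 3.

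In hy5 3 of the 4 genes called at 1 h were cleavage genes, but no difference from the WT response at 1 h was called for any gene. At 1 h 4 of 31 rose in hy5 and 0 fell (3.62% of all genes called higher and 3.15% lower, 6.77% in all): NCED5, CCD7, CCD8 and IDI2. Without hy5 0 h replicate 2 the count was 2. The root score was 2.01 to 2.85 at 0 h and 3.498 to 3.79 at 1 h, although 0 of 19 root markers were called higher. With the root score as a covariate 2 of the 4 calls were lost, IDI2 (0.18, adjusted p = 0.400) and CCD7 (2.25, adjusted p = 0.0570). At 8 h NCED5 was higher and PSY and DXR lower (9.27% of all genes called). That count was 1 without hy5 0 h replicate 1 or 2, 0 without hy5 8 h replicate 1, and 6 without hy5 8 h replicate 2, a library described with BCH2 below. The median of the 31 was -0.14 at 8 h and 0.0032 over all genes.

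The pif457 triple mutant showed 0 calls among the 31 at 1 h (0.227% of all genes called), with 0 at an unadjusted p under 0.05 and 0 by DESeq2. At 8 h NCED3 was higher and VDE lower in pif457 (9.94% of all genes called, median -0.079, all genes 0.04). The count was 8 without pif457 8 h replicate 1, and 1 without pif457 0 h replicate 2 or pif457 8 h replicate 3. In hy5 pif457 0 genes were called at 1 h (0.181% of all genes called), 1 had an unadjusted p under 0.05, and DESeq2 called 0. At 8 h 5 fell in hy5 pif457 and 0 rose, against 6.2% of all genes called lower and 4.73% higher (10.9% in all): BCH2, ZEP, HDR, LCYB and PDS. Of all genes called there 43.3% were higher, and 55.0% with RLE scaling. The median there was -0.31 against -0.036 over all genes, and 5 of 31 fold changes were positive. The green score was 11.88 to 11.91 at 8 h and 12.07 to 12.37 at 0 h, with 1 of 8 green markers, RCA, called lower (-0.95), and its part was not tested. The root score was 2.00 to 2.37 at 8 h and 3.05 to 3.66 at 0 h, and with it as a covariate BCH2 lost its call (-1.45, adjusted p = 0.0548) and the other 4 were kept. Leaving out a hy5 pif457 library lowered that count to 2 for each 0 h replicate and for 8 h replicate 3, and to 1, ZEP, for 8 h replicate 1. Each genotype's 1 h and 8 h values share its 0 h libraries.

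**Figure D1:**
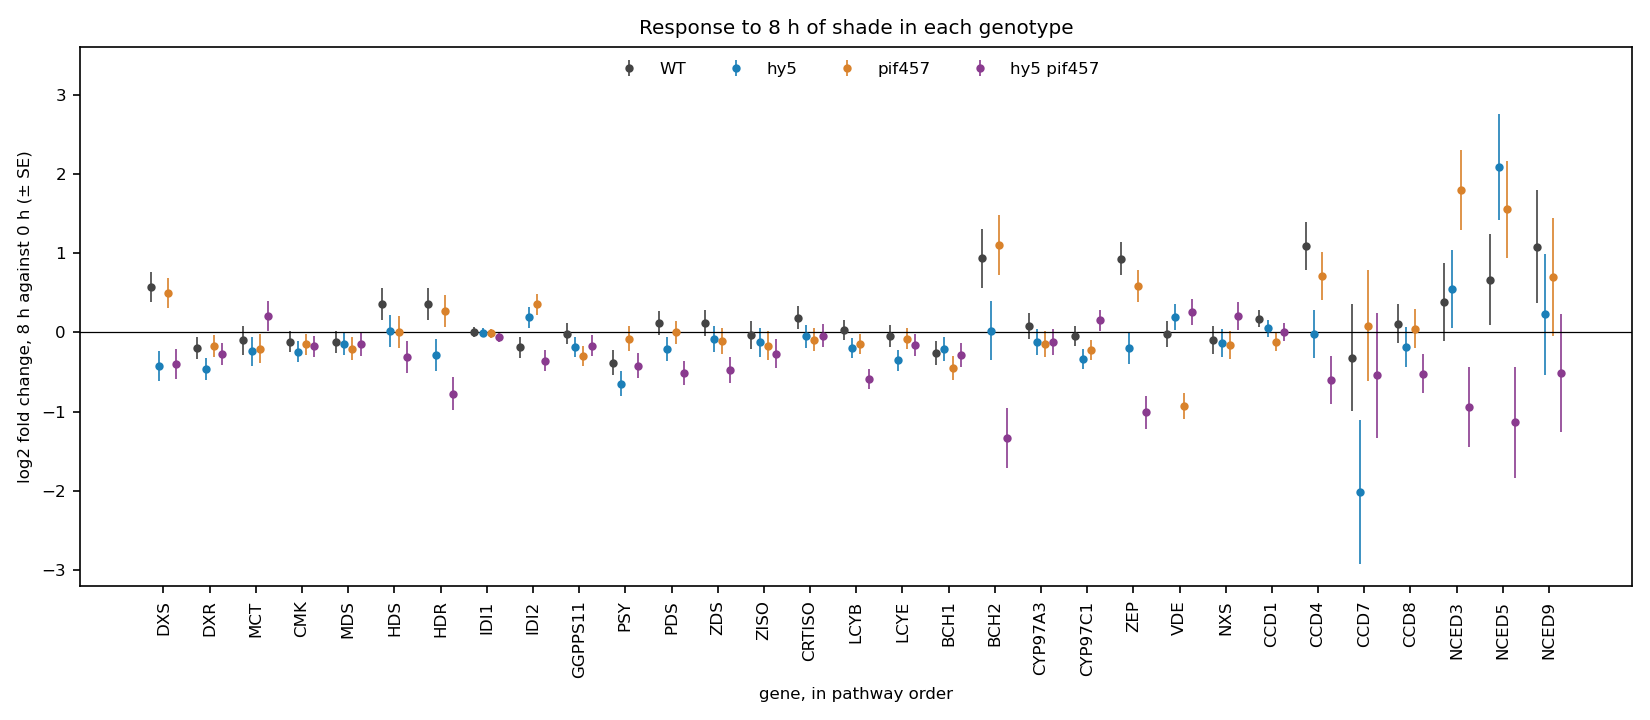
Log2 fold change (± SE, y axis) of each of the 31 tested genes at 8 h of shade against 0 h, in pathway order (x axis), with 1 colour per genotype. ZEP and BCH2 were positive in WT and negative in hy5 pif457. In hy5 the BCH2 change was 0.022, with 1 replicate apart from the others. All groups share 1 estimate of the spread, so the SE does not show the scatter of that group.

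In white light some of these genes were called against WT in hy5 and in hy5 pif457, but not in pif457. At 0 h 4 of 31 were called in hy5 and 2 in hy5 pif457: ZEP and DXS were higher and CYP97A3 and BCH1 lower in hy5 (9.49% of all genes called), and ZEP was higher and CYP97A3 lower in hy5 pif457 (8.94%). Without a single library the hy5 count was 1 to 5: it was 1 without WT 0 h replicate 1 or 3, and 2 without hy5 0 h replicate 1 or 2. For hy5 pif457 it was 0 without its replicate 3, and 1 without WT replicate 1 or its own replicate 1 or 2. The root score at 0 h was 3.05 to 3.66 in hy5 pif457 and 1.96 to 2.48 in WT, with 3 of 19 root markers called higher, and both hy5 pif457 calls were kept with the root score as a covariate. In pif457 0 of 31 were called at 0 h (0.0835% of all genes), 0 at an unadjusted p under 0.05 and 0 by DESeq2.

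After 1 h of shade NCED3 and NCED5 were lower in pif457 than in WT (2.57% of all genes called). In hy5 pif457 those and CCD7, CYP97A3 and CCD1 were lower (7.57%). In hy5 CYP97A3 and CYP97C1 were lower at 1 h (4.27%) and again at 8 h (2.61%). The pif457 count was 1 without WT 1 h replicate 2 or pif457 1 h replicate 1 or 3. For hy5 pif457 it was 2 without replicate 1 and 3 without replicate 2 of that group at 1 h. For hy5 it was 1 without WT 1 h replicate 1 or 3 or hy5 1 h replicate 1 or 2, 4 without hy5 1 h replicate 3, and, at 8 h, 1 without WT 8 h replicate 2 or 3 or hy5 8 h replicate 1. Without hy5 8 h replicate 1 the gene called was CCD8 (-1.24, adjusted p = 0.0177), and CYP97A3 and CYP97C1 both lost their calls.

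At 8 h 14 of the 31 genes were lower in hy5 pif457 than in WT and 0 were higher, where 10.6% of all genes were called lower and 8.1% higher (18.7% in all). They were 2 of 7 MEP genes, 1 of 3 prenyl genes, 5 of 7 carotene genes, 3 of 7 xanthophyll genes, 2 of 4 CCD genes and 1 of 3 NCED genes. The median of the 31 was -0.44, against 0.02 over all genes, and the carotene genes had a median of -0.50. The count was 4 without WT 8 h replicate 3, 5 without hy5 pif457 8 h replicate 1 and 6 without hy5 pif457 8 h replicate 3, and 10 to 12 without each other library; BCH2, CYP97A3, ZDS and ZEP were called in all of these fits. Green tissue markers were lower in the same samples: 3 of 8, RCA (-0.90), CA1 (-0.59) and PRK (-0.50), were called, and the green score was 11.88 to 11.91 against 12.28 to 12.41. The part of the green markers in the lower pathway genes was not tested. Root scores overlapped, at 2.00 to 2.37 and 0.64 to 2.41, and with the root score as a covariate HDR (-0.53, adjusted p = 0.0573), GGPPS11 (-0.27, adjusted p = 0.0787) and LCYE (-0.33, adjusted p = 0.0570) lost their calls.

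Compared with pif457 at 8 h, a contrast within the rRNA-rich libraries, 10 genes were lower and 1, VDE, higher in hy5 pif457 (15.1% of all genes called lower and 11.3% higher, 26.5% in all). That count was 2 without hy5 pif457 8 h replicate 1 or 3, 5 and 6 without pif457 8 h replicate 1 and 2, and 15 without pif457 8 h replicate 3. Root markers moved with this contrast too, since 7 of 19 were lower in hy5 pif457 and the root score was 2.00 to 2.37 there and 1.71 to 4.08 in pif457. With the root score as a covariate 4 of the 11 calls were lost, those of IDI2 (-0.16, adjusted p = 0.232), NCED3 (-0.91, adjusted p = 0.255), NCED5 (-1.62, adjusted p = 0.118) and ZISO (-0.52, adjusted p = 0.0579). In pif457 against WT at 8 h, IDI2 was higher and VDE lower (11.3% of all genes called). The pif457 count was 0 without WT 8 h replicate 2 or pif457 8 h replicate 3, 7 when pif457 8 h replicate 1 was left out and 1 when WT 8 h replicate 3 was.

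**Figure D2:**
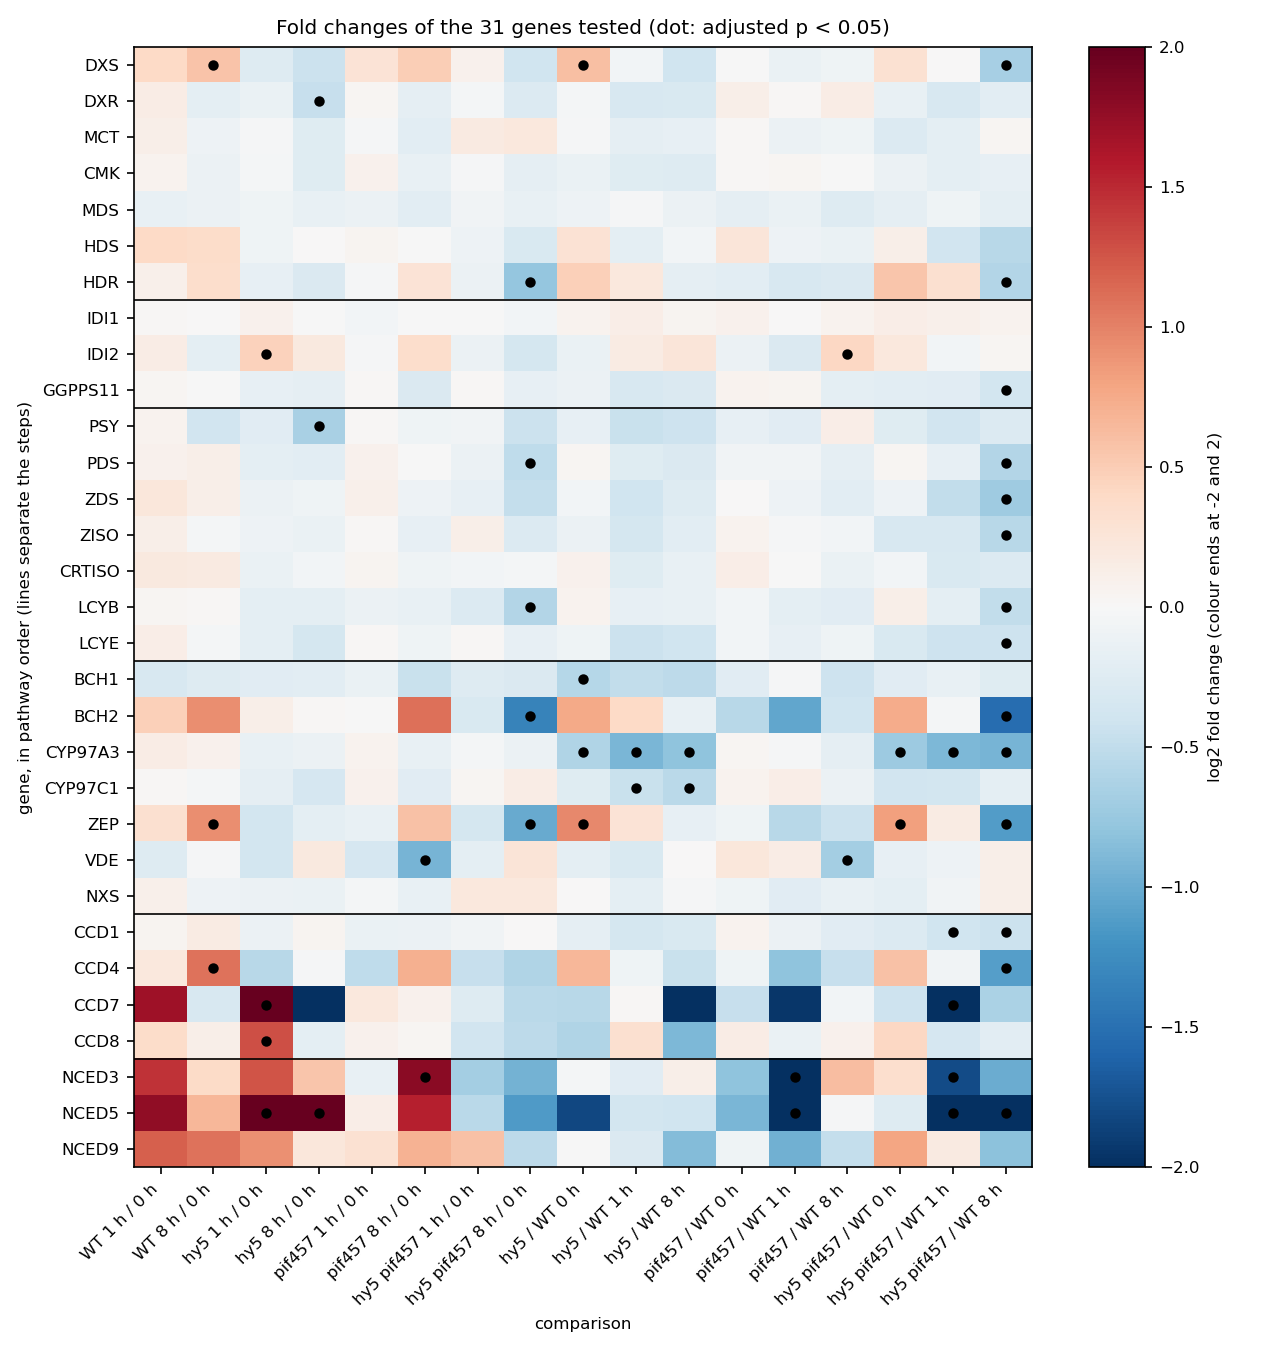
Log2 fold changes (colour, from -2 to 2, values beyond shown at the end colour) of the 31 tested genes (rows, in pathway order) in 17 comparisons (columns), 8 of shade against 0 h and 9 of a mutant against WT. Dots mark adjusted p under 0.05. The last column, hy5 pif457 against WT at 8 h, holds 14 dots, all on lower values, and the CYP97A3 row holds a dot in 6 of the 9 columns against WT.

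Whether a mutant's shade response differed from that of WT was tested directly. At 1 h no response difference was called among the 31 for hy5 (0% of all genes called), pif457 (0.872%) or hy5 pif457 (0.969%), with 3, 1 and 4 genes at an unadjusted p under 0.05 and 0 by DESeq2 in each. At 8 h the hy5 response was lower than the WT response for ZEP (1.53% of all genes called), and that of pif457 was lower for VDE (2.92%). Leaving out 1 library took the hy5 count to 3 without hy5 0 h replicate 3, to 4 without hy5 8 h replicate 2 and to 0 without each of the other 10, and the pif457 count to 3 without pif457 8 h replicate 1 and to 0 without 7 others named with VDE below. For hy5 pif457, 7 responses were lower and 0 higher (8.94% and 4.74% of all genes, 13.7% in all): BCH2, ZEP, CCD4, HDR, DXS, PDS and LCYB. Of all genes called there 34.6% were higher, and 48.0% with RLE scaling. That count was 3 without WT 8 h replicate 3, with BCH2, HDR and ZEP kept, 4 without hy5 pif457 0 h replicate 1 or 2 or 8 h replicate 1 or 3, and 5 or 6 otherwise. These tests share the WT libraries.

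Among the MEP genes, DXS and HDR, which encode the first and last enzymes, had the most calls, 5 and 3 of 25 comparisons. DXS read 379, 377 and 402 CPM in the WT replicates at 0 h, 544, 456 and 524 at 1 h and 539.9, 561 and 624 at 8 h. All 8 h libraries of WT lay above all 0 h libraries, and DXS rose (log2 fold change 0.58 ± 0.19, adjusted p = 0.0328), a call that was lost without WT 0 h replicate 1, 2 or 3 or WT 8 h replicate 2 or 3. In hy5 it read 647, 636 and 468 CPM at 0 h and 318, 609.8 and 377 at 8 h, so those groups overlapped. At 0 h hy5 was above WT in every library (log2 fold change 0.60 ± 0.19, adjusted p = 0.0451), but the call was lost without WT replicate 1, 2 or 3 or hy5 replicate 1 or 2. It was kept under only 2 of 9 other settings, and RLE size factors (0.58, adjusted p = 0.0619) were among those that lost it. In hy5 pif457 DXS read 512, 489 and 436 CPM at 0 h and 326, 421 and 347 at 8 h, below each WT library at 8 h (log2 fold change -0.66 ± 0.19, adjusted p = 0.0175), a call lost without WT 8 h replicate 3 or hy5 pif457 8 h replicate 1 or 3.

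HDR makes isopentenyl and dimethylallyl diphosphate. Its level in WT was 273, 261 and 298 CPM at 0 h and 375, 344 and 346 CPM at 8 h, higher in each 8 h library but not called (log2 fold change 0.36 ± 0.20, adjusted p = 0.234). In hy5 pif457 it was 408, 394 and 415 CPM at 0 h, 402, 358 and 359 CPM at 1 h and 236, 245 and 232 CPM at 8 h. The last 3 values were below the other 6, and HDR fell to 58.5% of its 0 h level (log2 fold change -0.77 ± 0.20, adjusted p = 0.0176), lost without hy5 pif457 0 h replicate 1, 2 or 3 or hy5 pif457 8 h replicate 1 or 3. The response differed from that of WT (log2 fold change -1.13 ± 0.29, adjusted p = 0.0115) and was kept without each of 12 libraries. DXR, which carries out the next step after DXS, fell in hy5 at 8 h, from 137, 132 and 119 CPM to 72.5, 115 and 94.9 CPM (log2 fold change -0.46 ± 0.14, adjusted p = 0.0339). This call was lost without hy5 0 h replicate 1, 2 or 3 or hy5 8 h replicate 1 or 3. HDS, the enzyme before HDR, and MCT, CMK and MDS, which act between DXR and HDS, had 0 calls in the 25 comparisons. HDS was nearest to one in hy5 pif457 against WT at 8 h (log2 fold change -0.55 ± 0.20, adjusted p = 0.0555).

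Of the genes that pool and join the units, IDI1 and IDI2, the isopentenyl diphosphate isomerases, had 0 and 3 calls. IDI1 read 35.5, 37.6 and 33.2 CPM in WT at 0 h and 36.9, 34.5 and 35.1 CPM at 8 h. IDI2 read 52.9, 55.1 and 56.7 CPM in hy5 at 0 h and 75.8, 71.4 and 79.0 CPM at 1 h. The 3 later values were all above the earlier ones and IDI2 rose (log2 fold change 0.46 ± 0.13, adjusted p = 0.0294), lost without hy5 0 h replicate 1 or 2 or hy5 1 h replicate 1 or 3 and with the root score as a covariate (0.18, adjusted p = 0.400). In pif457 at 8 h IDI2 read 52.7, 63.6 and 95.4 CPM, highest in replicate 3, and the call against WT (log2 fold change 0.42 ± 0.13, adjusted p = 0.0368) was lost without that library, without WT 8 h replicate 2 or 3 and with the root score as a covariate (0.06, adjusted p = 0.853). IDI2 shares 36.9% of its 50-base stretches with the antisense gene AT3G02790, so its values are uncertain. GGPPS11, the main plastid geranylgeranyl diphosphate synthase, was lower in hy5 pif457 than in WT at 8 h (log2 fold change -0.37 ± 0.13, adjusted p = 0.0451), lost without WT 8 h replicate 1, 2 or 3 or hy5 pif457 8 h replicate 1 or 3. It is wholly overlapped by the antisense gene AT4G36808, and whether counting used strand is not given in the sources used here.

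**Figure D3:**
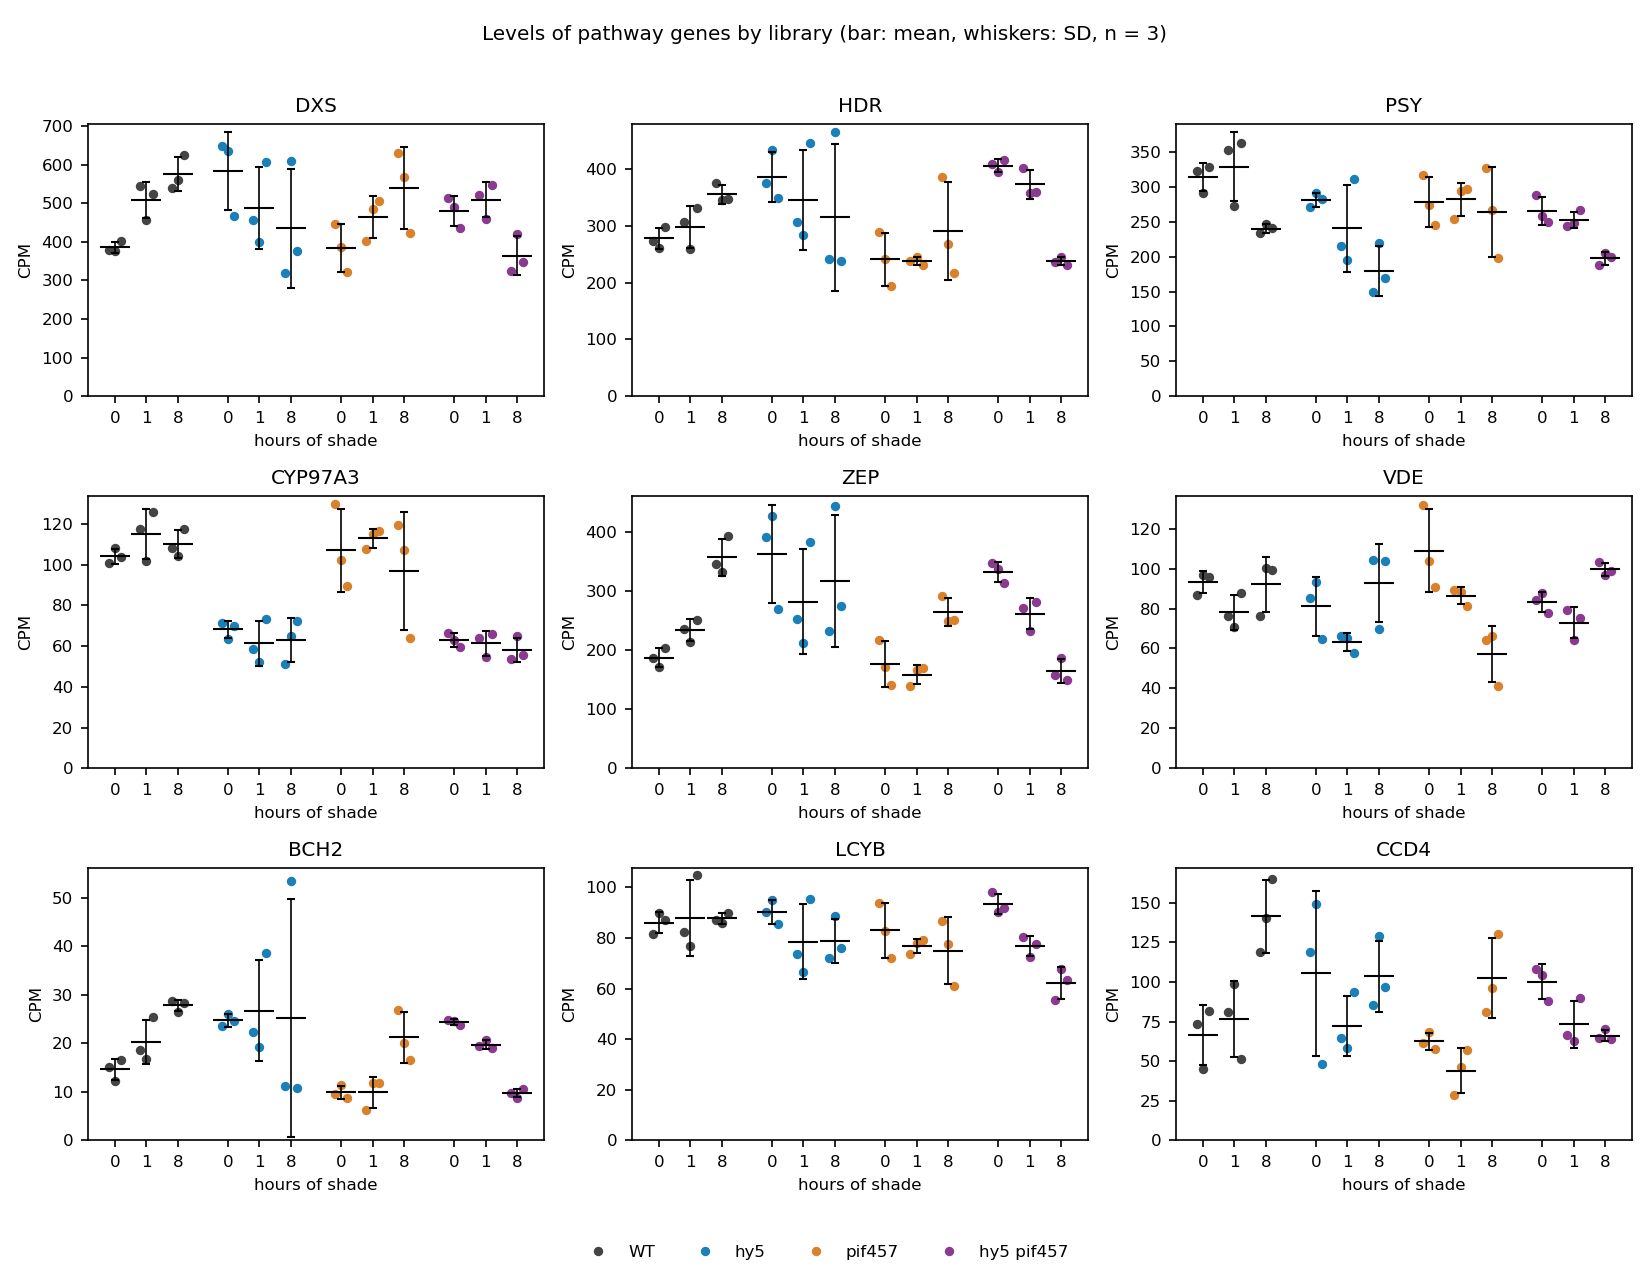
CPM (y axis) of 9 genes in each library, by genotype (colour) and hours of shade (x axis), with the mean and SD of 3 replicates. CYP97A3 was lower in hy5 and hy5 pif457 at each time, ZEP and BCH2 were higher at 8 h than at 0 h in WT and lower in hy5 pif457, and BCH2 in hy5 at 8 h had 1 replicate at 53.5 CPM beside 11.3 and 10.9.

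PSY, the entry to carotenoids, was called in 1 of the 25 comparisons. In WT it read 323, 290.5 and 328 CPM at 0 h, 352, 273 and 362 at 1 h and 233, 247 and 240.4 at 8 h. Each 8 h library was below each earlier one, but the decrease was not called (log2 fold change -0.39 ± 0.16, adjusted p = 0.0897). That decrease was called with only the groups compared (-0.39, adjusted p = 0.0229) and with the root score as a covariate (-0.46, adjusted p = 0.0346). In hy5 PSY read 271, 290.5 and 283 CPM at 0 h, 215, 196 and 312 at 1 h and 149.8, 220.0 and 169 at 8 h. All 8 h values were below those at 0 h and PSY fell to 63.8% (log2 fold change -0.65 ± 0.16, adjusted p = 0.00885). Among the libraries left out, that call was lost only without hy5 8 h replicate 1. It was also lost with only the groups compared. In pif457 the values were 316, 274 and 246 CPM at 0 h, 254, 294 and 297 at 1 h and 327, 267 and 198 at 8 h, which overlapped. In hy5 pif457 they were 288, 258 and 250.0 CPM at 0 h, 244, 248 and 266 at 1 h and 188, 206 and 199.8 at 8 h, lowest at 8 h in every library and not called (log2 fold change -0.42 ± 0.16, adjusted p = 0.0782). The decrease in hy5 pif457 was called with only the groups compared (-0.37, adjusted p = 0.00635). In the edgeR fit of all libraries PSY was not called in any of the 9 comparisons of a mutant with WT. It was called lower in hy5 at 1 h without hy5 1 h replicate 3 (-0.72, adjusted p = 0.0208). In hy5 pif457 at 8 h it was called lower with only the groups compared (-0.29, adjusted p = 0.0194). The PSY response to 8 h of shade in hy5 differed from that in WT by -0.26 ± 0.22 (adjusted p = 0.587).

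Of the 7 carotene genes, 5 were lower in hy5 pif457 than in WT at 8 h, each by less than 1 on the log2 scale. PDS, phytoene desaturase, read 129.8, 125 and 139 CPM in WT at 8 h. In hy5 pif457 it read 133, 127 and 114 CPM at 0 h and 81.1, 98.0 and 82.7 at 8 h. The 8 h libraries of hy5 pif457 lay below both other groups, and PDS was lower against 0 h (log2 fold change -0.51 ± 0.15, adjusted p = 0.0290) and against WT (log2 fold change -0.59 ± 0.15, adjusted p = 0.00777). The first call was lost without hy5 pif457 0 h replicate 1, 2 or 3 or hy5 pif457 8 h replicate 1 or 3, and the second without WT 8 h replicate 3 or hy5 pif457 8 h replicate 1 or 3. ZDS, zeta-carotene desaturase, kept its call without each library and under each other setting: it read 129.6, 117 and 139 CPM in WT at 8 h and 72.0, 91.6 and 73.2 in hy5 pif457 (log2 fold change -0.70 ± 0.16, adjusted p = 0.00392), with no overlap. Beside them, ZISO, zeta-carotene isomerase (-0.56), LCYB, lycopene beta-cyclase (-0.50), and LCYE, lycopene epsilon-cyclase (-0.42), were also lower at 8 h in hy5 pif457, while PSY (-0.28) and CRTISO, carotenoid isomerase (-0.28), were not called. ZISO lost its call without WT 8 h replicate 1 or 3 or hy5 pif457 8 h replicate 1 or 3, LCYB without WT 8 h replicate 3 or hy5 pif457 8 h replicate 1, and LCYE without WT 8 h replicate 2 or 3 or hy5 pif457 8 h replicate 1 or 3.

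LCYB directs lycopene to both carotenes. In hy5 pif457 it read 98.1, 90.3 and 92.0 CPM at 0 h, 80.5, 72.7 and 77.7 at 1 h and 55.4, 67.7 and 63.5 at 8 h, each time below the last without overlap. It fell by 8 h (log2 fold change -0.59 ± 0.13, adjusted p = 0.00523), lost without hy5 pif457 8 h replicate 1. In WT it read 81.6, 89.8 and 86.9 CPM at 0 h and 87.2, 86.0 and 89.9 at 8 h, which overlapped. LCYB shares 13.5% of its 50-base stretches with the antisense genes AT3G02305 and AT3G10220.

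ZEP, which converts zeaxanthin to violaxanthin, was called in 8 of the 25 comparisons, more than any other member. In WT it read 187, 171 and 204 CPM at 0 h, 235, 214 and 251 at 1 h and 345, 333 and 393 at 8 h. The times did not overlap, and ZEP rose 1.91-fold by 8 h (log2 fold change 0.93 ± 0.20, adjusted p = 0.00198), a call kept without each of the 6 libraries and under each of 9 other settings. In hy5 it read 392, 427 and 270.1 CPM at 0 h, 253, 212 and 382 at 1 h and 232, 444 and 275 at 8 h, with overlap throughout. It started above WT at 0 h in every library (log2 fold change 0.95 ± 0.20, adjusted p = 0.00408) and its 8 h response was lower than in WT (log2 fold change -1.12 ± 0.29, adjusted p = 0.0441), a difference that was called in only 2 of 12 fits with 1 library left out, those without hy5 0 h replicate 3 or hy5 8 h replicate 2.

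In hy5 pif457 ZEP moved the other way. It read 347, 337 and 314 CPM at 0 h, 272, 232 and 282 at 1 h and 158, 188 and 149 at 8 h. All 0 h values were above WT at 0 h (log2 fold change 0.83 ± 0.20, adjusted p = 0.0117) and all 8 h values below WT at 8 h (log2 fold change -1.11 ± 0.21, adjusted p = 0.000422). ZEP fell to 49.6% of its 0 h level (log2 fold change -1.01 ± 0.20, adjusted p = 0.00303), and the response difference from WT was -1.94 ± 0.29 (adjusted p = 0.000103). The fall and the response difference were kept without each library and under each other setting, while the 0 h call was lost without WT 0 h replicate 1 or hy5 pif457 0 h replicate 1, 2 or 3. In pif457 ZEP read 217, 172 and 140.5 CPM at 0 h, 139.8, 166 and 169.8 at 1 h and 292, 249.5 and 251 at 8 h. It was above both earlier groups in each 8 h library but was not called (log2 fold change 0.58 ± 0.20, adjusted p = 0.0640).

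BCH2, one of the beta-carotene hydroxylases that make zeaxanthin, had the same directions as ZEP in WT and hy5 pif457. In WT it read 15.1, 12.2 and 16.5 CPM at 0 h and 28.7, 26.6 and 28.4 at 8 h, without overlap and not called (log2 fold change 0.93 ± 0.37, adjusted p = 0.0799). In hy5 pif457 it read 24.8, 24.7 and 23.8 CPM at 0 h, 19.5, 20.7 and 19.0 at 1 h and 9.75, 8.81 and 10.5 at 8 h. The 8 h values were below each earlier one, and BCH2 fell to 39.6% (log2 fold change -1.34 ± 0.38, adjusted p = 0.0267), lost without any 1 of the 6 libraries. The response difference from WT was the largest of the 7 called (log2 fold change -2.27 ± 0.53, adjusted p = 0.00688) and, like the difference from WT at 8 h (log2 fold change -1.53 ± 0.38, adjusted p = 0.00700), was kept without each library. In hy5 BCH2 read 23.5, 26.1 and 24.6 CPM at 0 h and 11.3, 53.5 and 10.9 at 8 h, where replicate 2 stood apart. The fitted change was 0.022 ± 0.37 with it and -1.17, adjusted p = 0.00460 without it. The green score of that replicate was 12.51, against 11.96 and 12.05 in the others of its group, and its part was not tested. DXS (-0.76, adjusted p = 0.0138) and HDR (-0.70, adjusted p = 0.0260) were also called lower in hy5 at 8 h without it, and the response differences from WT then called were those of BCH2 (-2.12, adjusted p = 0.000536), DXS, HDR and ZEP. In pif457 BCH2 read 9.62, 11.4 and 8.71 CPM at 0 h and 26.9, 20.2 and 16.6 at 8 h, again without overlap and not called by edgeR (log2 fold change 1.10 ± 0.38, adjusted p = 0.0611), whereas DESeq2 called it (1.09, adjusted p = 0.0364).

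CYP97A3, the cytochrome P450 that hydroxylates the beta ring of alpha-carotene on the way to lutein, was lower in both genotypes with the hy5 mutation at every time. In WT it read 101, 108 and 104 CPM at 0 h, 118, 102 and 126 at 1 h and 108, 104 and 118 at 8 h. In hy5 it read 71.4, 63.6 and 70.0 CPM at 0 h, 58.7, 52.0 and 73.4 at 1 h and 51.3, 65.2 and 72.4 at 8 h. Every hy5 library was below every WT library, at 65.6% of WT at 0 h (log2 fold change -0.61 ± 0.16, adjusted p = 0.0191), 53.3% at 1 h (log2 fold change -0.91 ± 0.16, adjusted p = 0.00127) and 57.2% at 8 h (log2 fold change -0.81 ± 0.16, adjusted p = 0.00524). The 0 h call was lost without WT 0 h replicate 1 or 3 or hy5 0 h replicate 2 and the 8 h call without hy5 8 h replicate 1 or with the root score as a covariate (-0.68, adjusted p = 0.0750), while the 1 h call was kept without each library. With only the groups compared, the 1 h and 8 h calls were both lost. At 8 h 5 of 19 root markers were higher in hy5 than in WT, where 2.61% of all genes were called in either direction. The root scores were 2.84 to 3.20 and 0.64 to 2.41.

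In hy5 pif457 CYP97A3 read 66.3, 63.0 and 59.6 CPM at 0 h, 63.8, 54.5 and 66.0 at 1 h and 53.8, 64.8 and 55.6 at 8 h. These too were all below WT, with differences of -0.73 ± 0.16, -0.91 ± 0.16 and -0.92 ± 0.16 on the log2 scale (adjusted p = 0.00624, 0.000456 and 0.000287). The 0 h call was lost without hy5 pif457 0 h replicate 3, and the others were kept without each library. In pif457 CYP97A3 read 129.7, 102 and 89.5 CPM at 0 h, 108, 115 and 116 at 1 h and 119.6, 107 and 64.0 at 8 h, which overlapped WT at each time. Its changes with shade were small and not called in any genotype, from -0.16 to 0.14.

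CYP97C1, the P450 that hydroxylates the epsilon ring in lutein synthesis, was lower in hy5 at 1 h, at 37.9, 37.9 and 39.9 CPM against 55.2, 47.1 and 54.8 in WT (log2 fold change -0.44 ± 0.13, adjusted p = 0.0472), and at 8 h (log2 fold change -0.53 ± 0.13, adjusted p = 0.0226). With the root score as a covariate both calls were lost (-0.34, adjusted p = 0.132 and -0.35, adjusted p = 0.356); at 1 h the root score was 3.498 to 3.79 in hy5 and 2.17 to 3.32 in WT. The 1 h call was lost without WT 1 h replicate 1 or 3 or hy5 1 h replicate 1, 2 or 3 and with the replicate block (-0.44, adjusted p = 0.0567), and the 8 h call without WT 8 h replicate 2 or 3 or hy5 8 h replicate 1 or 2. CYP97C1 shares 40.5% of its 50-base stretches with AT3G53140 on the same strand, so its values are uncertain. BCH1, the other beta-carotene hydroxylase, was lower in hy5 than in WT at 0 h, with 56.0, 66.2 and 58.3 CPM against 100.4, 67.9 and 101 (log2 fold change -0.58 ± 0.15, adjusted p = 0.0144), lost without WT 0 h replicate 1 or 3 or hy5 0 h replicate 1. NXS (AT1G67080), needed for neoxanthin synthesis, had 0 calls.

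VDE, which reverses ZEP in strong light, changed in pif457. It read 132, 104 and 91.0 CPM at 0 h, 89.5, 88.4 and 81.5 at 1 h and 64.2, 66.2 and 41.2 at 8 h in pif457, and 76.4, 100.4 and 99.4 in WT at 8 h. Each pif457 library at 8 h was below the rest, and VDE fell to 52.5% of its 0 h level (log2 fold change -0.93 ± 0.17, adjusted p = 0.000991), kept without each of the 6 libraries. It was also lower than in WT at 8 h (log2 fold change -0.69 ± 0.16, adjusted p = 0.00847), lost without WT 8 h replicate 2 or pif457 8 h replicate 3 and with the root score as a covariate (-0.48, adjusted p = 0.202). The difference between the responses was called (log2 fold change -0.91 ± 0.23, adjusted p = 0.0293) and was lost without WT 0 h replicate 1 or 3, WT 8 h replicate 2 or 3, pif457 0 h replicate 1 or 2 or pif457 8 h replicate 3. In hy5 pif457 VDE read 103, 96.6 and 98.9 CPM at 8 h, above each pif457 library (log2 fold change 0.80 ± 0.17, adjusted p = 0.00164), and this call was kept without each library. With only the groups compared, each of these VDE calls was lost, the fall from 0 h included. Root markers moved with the pif457 results at 8 h: 10 of 19 were above WT, where 11.3% of all genes were called in either direction. The root score was 1.71 to 4.08 against 0.64 to 2.41. With the root score as a covariate the response difference of VDE was -0.67, adjusted p = 0.232, and the fall from 0 h remained called. VDE shares 17.7% of its 50-base stretches with the antisense gene AT1G08560.

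Among the CCD genes, CCD4, which cleaves carotenoids in plastids and lowers their content in seeds and petals, rose in WT at 8 h. It read 73.2, 44.95 and 81.5 CPM at 0 h, 80.9, 98.7 and 51.2 at 1 h and 119, 140.3 and 165 at 8 h. The 8 h values were above all others in WT (log2 fold change 1.09 ± 0.31, adjusted p = 0.0134), with the call lost without WT 0 h replicate 2 or WT 8 h replicate 3. In hy5 pif457 it read 108, 105 and 88.0 CPM at 0 h and 64.4, 70.4 and 63.7 at 8 h, lower than WT at 8 h (log2 fold change -1.10 ± 0.31, adjusted p = 0.0149, lost without WT 8 h replicate 3 or hy5 pif457 8 h replicate 1 or 3). The difference between those responses was -1.69 ± 0.43 (adjusted p = 0.0122), lost without WT 8 h replicate 3. CCD1, a cytosolic enzyme that makes volatile apocarotenoids, was lower in hy5 pif457 than in WT at 1 h (log2 fold change -0.40 ± 0.11, adjusted p = 0.0226) and at 8 h (log2 fold change -0.44 ± 0.11, adjusted p = 0.00727). The 1 h call was lost without WT 1 h replicate 3 or hy5 pif457 1 h replicate 1 or 2, and the 8 h call without WT 8 h replicate 3.

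CCD7 and CCD8 act in sequence in strigolactone synthesis, and CCD7 was near the limit of detection. Its counts were 8, 0 and 2 in hy5 at 0 h, 14, 18 and 11 at 1 h and 1, 0 and 1 at 8 h. The 1 h libraries held more than the rest (log2 fold change 2.27 ± 0.61, adjusted p = 0.0196), a call lost without hy5 0 h replicate 2 or 3 or hy5 1 h replicate 2 and with the root score as a covariate. In WT its counts were 7, 2 and 4 at 0 h, 13, 14 and 17 at 1 h and 3, 4 and 4 at 8 h, again highest at 1 h in every library. The difference at 1 h was not called (log2 fold change 1.69 ± 0.59, adjusted p = 0.0895), and the decrease from 1 h to 8 h was (log2 fold change -2.01 ± 0.60, adjusted p = 0.0348; 8.16% of all genes called), lost without any 1 of the 6 libraries. It was lower in hy5 pif457 than in WT at 1 h (log2 fold change -2.36 ± 0.63, adjusted p = 0.0168), with counts of 3, 1 and 4, lost without hy5 pif457 1 h replicate 1 or 2. CCD8 read 1.09, 1.39 and 1.25 CPM in hy5 at 0 h, 3.09, 3.76 and 2.21 at 1 h and 1.5, 0.713 and 1.04 at 8 h. It was higher at 1 h without overlap (log2 fold change 1.29 ± 0.25, adjusted p = 0.000986), kept without each library and under each other setting. In WT CCD8 read 1.81, 2.06 and 1.77 CPM at 0 h and 2.498, 2.69 and 2.13 at 1 h (log2 fold change 0.37 ± 0.24, adjusted p = 0.395), and the difference between these responses was not called (0.91 ± 0.35, adjusted p = 0.347). CCD8 shares 15.1% of its stretches with the antisense gene AT4G32820.

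**Figure D4:**
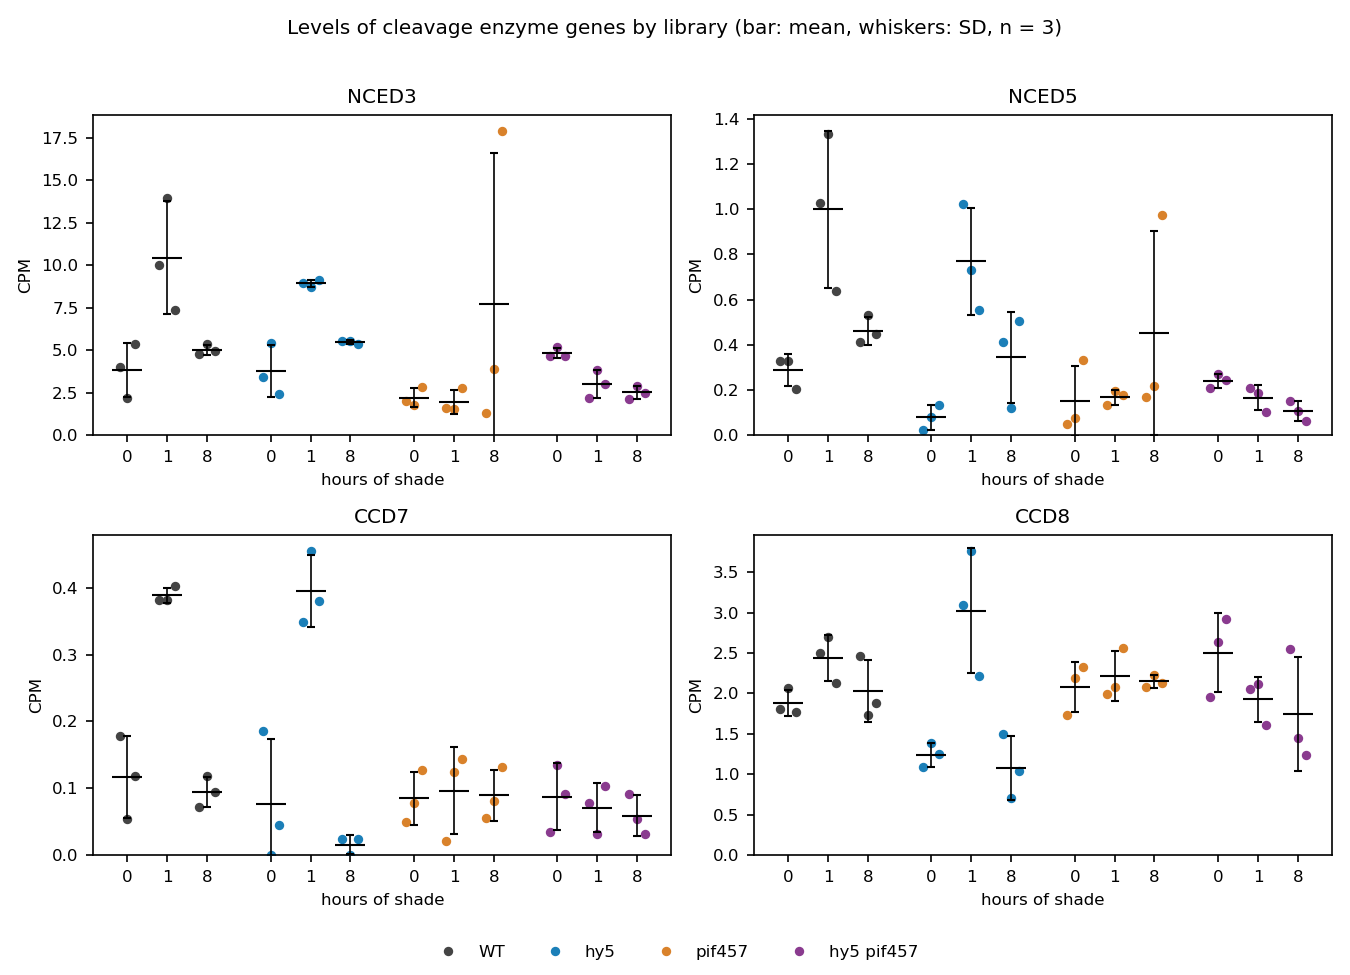
CPM (y axis) of NCED3, NCED5, CCD7 and CCD8 in each library, by genotype (colour) and hours of shade (x axis), with the mean and SD of 3 replicates. For NCED3, NCED5 and CCD7 each 1 h library of WT and hy5 lay above each 1 h library of pif457 and hy5 pif457, for CCD8 they overlapped, and 1 pif457 library at 8 h stood at 17.9 CPM for NCED3.

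NCED3, the main stress-responsive enzyme of abscisic acid synthesis, and NCED5, a close relative, were higher at 1 h than at 0 h in every WT and hy5 library. NCED3 read 4.00, 2.2 and 5.37 CPM in WT at 0 h, 10.05, 13.99 and 7.35 at 1 h and 4.79, 5.36 and 4.98 at 8 h. The 1 h libraries were above the rest, but the change was not called in the edgeR fit of all libraries (log2 fold change 1.44 ± 0.49, adjusted p = 0.0858). In hy5 NCED3 read 3.43, 5.42 and 2.42 CPM at 0 h and 8.95, 8.74 and 9.13 at 1 h, also without overlap and not called there (log2 fold change 1.25 ± 0.49, adjusted p = 0.126). Without the rRNA-rich libraries edgeR called NCED3 at 1 h in WT (1.41, adjusted p = 0.0122) and in hy5 (1.26, adjusted p = 0.0176). The hy5 change was also called with only the groups compared (1.23, adjusted p = 0.0402). At 1 h pif457 read 1.59, 1.56 and 2.77 CPM and hy5 pif457 2.21, 3.87 and 3.03. Both were below WT in every library, at 19.1% (log2 fold change -2.39 ± 0.51, adjusted p = 0.00469) and 29.0% (log2 fold change -1.79 ± 0.50, adjusted p = 0.0244). The first was kept without each library and under each of 9 other settings, and the second was lost without WT 1 h replicate 2 or hy5 pif457 1 h replicate 1 or 3. A difference between the 1 h responses of pif457 and WT was not called (-1.59 ± 0.71, adjusted p = 0.989).

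NCED5, with 1 to 49 counts in a library, rose in hy5. It read 0.0232, 0.0801 and 0.136 CPM at 0 h, 1.02, 0.732 and 0.554 at 1 h and 0.411, 0.119 and 0.506 at 8 h, and the 1 h values lay above all others (log2 fold change 3.22 ± 0.65, adjusted p = 0.00154). This call was kept without each library and under each other setting; the 0 h counts it rests on were 1, 3 and 6. The 8 h group overlapped that at 0 h (log2 fold change 2.09 ± 0.67, adjusted p = 0.0477), and the call was lost without hy5 0 h replicate 1 or 2 or hy5 8 h replicate 1 or 3. In WT it read 0.331, 0.330 and 0.207 CPM at 0 h and 1.03, 1.33 and 0.638 at 1 h, without overlap and not called by edgeR (log2 fold change 1.77 ± 0.56, adjusted p = 0.0633). At 1 h it was lower than WT in pif457, at 0.133, 0.198 and 0.176 CPM (log2 fold change -2.54 ± 0.58, adjusted p = 0.00943), and in hy5 pif457, at 0.210, 0.187 and 0.104 CPM (log2 fold change -2.56 ± 0.60, adjusted p = 0.00597). The pif457 call was lost without WT 1 h replicate 2 or pif457 1 h replicate 1 or 3 and the hy5 pif457 call was kept without each library. At 8 h it was lower in hy5 pif457 (log2 fold change -2.06 ± 0.65, adjusted p = 0.0291), lost without WT 8 h replicate 2 or 3 or hy5 pif457 8 h replicate 1, 2 or 3. NCED9, mostly known from seeds, had 1 to 12 counts in a library and 0 calls.

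The rise of NCED3 in pif457 at 8 h rested on 1 library. The values were 2.00, 1.80 and 2.83 CPM at 0 h and 1.32, 3.91 and 17.9 at 8 h (log2 fold change 1.80 ± 0.51, adjusted p = 0.0257), and the groups overlapped. Without replicate 3 the change was 0.24, adjusted p = 0.815, and the call was also lost without pif457 0 h replicate 1 or 2. That replicate had a root score of 4.08 and a green score of 11.54, against 1.71 and 3.08, and 12.39 and 12.09, in the other 2. With the root score as a covariate the change was 1.03, adjusted p = 0.357, and the part of the green score was not tested. NCED5 read 0.169, 0.217 and 0.974 CPM in the same group, highest in the same library. Abscisic acid response genes stood apart there too: RAB18 read 3.69, 26.3 and 145 CPM, RD29B 1.07, 8.97 and 61.3 CPM and HAI2 0.0844, 1.33 and 13.7 CPM in the 3 replicates. These 3 were picked out after their values were seen.

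Genes beside the pathway were read from lists drawn up with earlier results known. Of 7 other steps of abscisic acid metabolism tested, 3 rose in WT at 8 h and 0 fell, against 12% and 7.11% of all genes, with a median of 0.054 against -0.025: CYP707A4 (log2 fold change 2.07 ± 0.21, adjusted p = 5.20e-08) and CYP707A2 (log2 fold change 1.76 ± 0.39, adjusted p = 0.00214), which inactivate abscisic acid, and AAO3, its last synthetic enzyme (log2 fold change 0.47 ± 0.16, adjusted p = 0.0462). At 1 h CYP707A3 rose in WT (log2 fold change 1.52 ± 0.35, adjusted p = 0.00826). The 8 h response of CYP707A4 was lower than that of WT in pif457 (log2 fold change -1.67 ± 0.30, adjusted p = 0.00177) and in hy5 pif457 (log2 fold change -1.56 ± 0.29, adjusted p = 0.00112). Of 7 abscisic acid response genes, 1 was called in WT at 8 h and 0 at 1 h, against 19.2% and 5.2% of all genes. The 1 gene was ABI1, a phosphatase that restrains the response (log2 fold change 0.55 ± 0.19, adjusted p = 0.0401). ABI1 rose at 8 h in hy5 (0.94), pif457 (0.85) and hy5 pif457 (0.62) as well. At 8 h RD29A, a stress-responsive gene, also rose in hy5 (log2 fold change 2.77 ± 0.44, adjusted p = 0.000102). HAI2, a phosphatase of the same kind as ABI1, was higher in pif457 at 8 h (log2 fold change 4.49 ± 1.23, adjusted p = 0.0228), where its level was highest in replicate 3. A response difference from WT was also called (log2 fold change 7.02 ± 1.67, adjusted p = 0.0198). HAI2 counts in pif457 were 5, 5 and 16 at 0 h and 3, 49 and 520 at 8 h. In WT they were 97, 5 and 153 at 0 h and 2, 16 and 30 at 8 h. The times overlapped in both genotypes, and a fit without pif457 8 h replicate 3 was not made for HAI2. In hy5 pif457 HAI2 (-4.92), RD29B (-3.42), RAB18 (-3.37) and HAI1 (-2.38) were lower than in pif457 at 8 h. RD29A was lower in hy5 pif457 than in WT at 0 h (log2 fold change -1.75 ± 0.44, adjusted p = 0.0122), at 1 h (-1.53) and at 8 h (-1.60). Of 3 other strigolactone genes, LBO rose in WT at 1 h (log2 fold change 0.97 ± 0.25, adjusted p = 0.0211). LBO (-0.95) and D27 (-0.59) were called lower in hy5 pif457 than in WT at 1 h. MAX1 was called higher in pif457 at 8 h than at 0 h (0.50) and than in WT (0.54), and was highest in replicate 3. The MAX1 response was higher than that of WT (0.75), and MAX1 was lower in hy5 pif457 than in pif457 at 8 h (-0.45).

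Among 10 helpers and regulators of carotenoid accumulation, PAR1, a transcriptional cofactor that antagonises PIFs, rose in WT at 1 h (log2 fold change 1.91 ± 0.18, adjusted p = 1.55e-08) and at 8 h (log2 fold change 2.21 ± 0.18, adjusted p = 1.33e-09). Its response was lower than that of WT in pif457 at 1 h (log2 fold change -1.87 ± 0.26, adjusted p = 3.15e-05) and at 8 h (log2 fold change -1.76 ± 0.25, adjusted p = 0.000255). PIF1, known to repress PSY, was lower at 1 h in WT (log2 fold change -0.48 ± 0.12, adjusted p = 0.0200) and in hy5 (log2 fold change -0.91 ± 0.12, adjusted p = 9.55e-06), while PIF3 was higher at 8 h in each genotype, from 0.88 in hy5 pif457 to 1.40 in pif457. In hy5 pif457 against WT at 8 h, 5 of the 10 were lower and 0 higher, against 10.6% and 8.1% of all genes, with a median of -0.32 against 0.02. PAR1 (log2 fold change -0.96 ± 0.17, adjusted p = 0.000336) and the plastoglobule proteins FBN1B (log2 fold change -0.84 ± 0.15, adjusted p = 0.000264) and FBN2 (log2 fold change -0.62 ± 0.16, adjusted p = 0.00681) were 3 of the 5.

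The cytosolic mevalonate pathway, the second source of isoprenoid units, had 3 of 10 genes called higher and 0 lower in WT at 8 h, against 12% and 7.11% of all genes, with a median of 0.11 against -0.025: HMGR1, its rate-limiting enzyme (log2 fold change 0.73 ± 0.11, adjusted p = 1.67e-05), AACT2 (0.32) and HMGS (0.28). In hy5 pif457 the 8 h responses of these 3 were lower than in WT, with differences of -0.74 for HMGR1, -0.48 for AACT2 and -0.70 for HMGS. Of 7 other geranylgeranyl diphosphate and DXS-like genes tested, GGPPS_SSU, the small subunit that partners GGPPS11, was lower in hy5 pif457 than in WT at 0 h (log2 fold change -0.56 ± 0.11, adjusted p = 0.00275), at 1 h (-0.47) and at 8 h (-0.42). At 8 h 2 of the 7 were lower, GGPPS_SSU and GGR, geranylgeranyl reductase (-0.65), and 1 was higher, DXL1, a DXS-like gene (log2 fold change 3.26 ± 1.12, adjusted p = 0.0424), against 10.6% and 8.1% of all genes. DXL1 had counts of only 3, 0 and 1 in WT and 15, 9 and 11 in hy5 pif457 at 8 h, and it was also called at 0 h (log2 fold change 3.19 ± 1.00, adjusted p = 0.0436), with counts of 3, 2 and 2 and 15, 12 and 29.

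Per length, as CPM per kilobase of annotated exon in WT at 0 h, the highest level was that of HDR (156 ± 10.6), followed by DXS (130.3 ± 4.72), PSY (125 ± 8.10), HDS (116 ± 15.8) and CCD1 (109 ± 2.91), all SD with n = 3. From DXS to CCD1 no neighbours in this order differed beyond their spread. Among hydroxylases, BCH1 (50.9 ± 10.8) and CYP97A3 (50.3 ± 1.77) did not differ beyond their spread, and both stood above CYP97C1 (15.4 ± 0.632) and BCH2 (11.5 ± 1.74). ZEP (71.9 ± 6.36) was above VDE (36.1 ± 2.18) on this scale. The NCED genes, CCD7 and CCD8 were lowest, with NCED3 at 1.41 ± 0.583, CCD8 at 0.894 ± 0.0752, NCED5 at 0.141 ± 0.0348, CCD7 at 0.0551 ± 0.0290 and NCED9 at 0.0367 ± 0.0300 CPM per kilobase.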

How the data were processed

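The deposited table holds expected counts per gene, which were whole numbers in all 36 columns; they were made by the authors with STAR 2.5.3a and RSEM 1.3.0 on TAIR10, per the submitters' processing notes. The kit was stranded, per the labels' protocols. The strand setting and annotation release were not given in the sources used here. Depth ran from 30846115 to 58025421 counts. Replicate pairs within a group gave a chi-square of at least 4.03 per degree of freedom, so no library was a copy of another in its group. Libraries of different groups were not compared in this way. Nothing beyond the label "biological" says how replicates were separated, so p-values measure the spread between these samples.

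Genes passing filterByExpr (minimum count 10, minimum total 15; 21562 genes) were fitted with edgeR 4.0.16 (R 4.3.3) as 12 groups, TMM scaling and quasi-likelihood F tests, with Benjamini-Hochberg adjustment over all genes tested in each of 25 comparisons. Response differences are interaction contrasts. CPM used the tested genes and TMM factors; the SE is the fold change divided by the square root of F. Alternatives were DESeq2 1.42.0, RLE size factors, no filter, a filter of 1 CPM in 3 libraries, only the groups compared, a replicate block, leaving out each library, the rRNA-rich libraries, or rRNA and organelle genes, and a root score covariate added after seeing the data. The code was tested on simulated counts. Figures used matplotlib 3.10.9.

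Same-numbered libraries deviated together (all 3 correlations over 0.1) in 3 of 19 pairs of groups, so the numbers were not taken to pair the samples. All 32 genes are named. Of the other lists only some of the called genes are given, so a gene not named there may have been called. The genes and lists were chosen with earlier results of these data known. Promoters were read from RefSeq TAIR10.1, and shared 50-base stretches were found by exact match between annotated exons.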

Additional observations from a re-analysis of the deposited data

Results flagged for a closer look

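A change in shade response between a mutant and WT at 8 h was itself tested, and 9 genes or gene and genotype pairs passed. In hy5 the response of ZEP was lower than in WT by a log2 difference of -1.12. In pif457 that of VDE differed by -0.91. In hy5 pif457 the differences were -2.27 for BCH2, -1.94 for ZEP, -1.69 for CCD4, -1.13 for HDR, -0.97 for DXS, -0.63 for PDS and -0.61 for LCYB. Those of BCH2, HDR and ZEP in hy5 pif457 were called without each of the 12 libraries and under each other setting that gave a value. Those of PDS and of ZEP in hy5 were called in the fewest fits: PDS in hy5 pif457 was lost without any 1 of the 12 libraries.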

How the results depend on the processing

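Of the 71 calls, 64 were kept with RLE size factors, 56 with no filter, 70 with DESeq2 (16 gained), 62 with the replicate block, 60 without rRNA and organelle genes, 49 with the root score covariate, added after seeing the data, and 44 of 69 with only the groups compared (27 gained). The cause of these changes was not tested.

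With DESeq2 the number of members called was 2 for WT at 1 h, 4 for pif457 at 8 h, 3 for WT 8 h against 1 h, 5 and 4 for hy5 against WT at 1 h and 8 h, and 2 for the hy5 response difference at 8 h. With the CPM filter it was 0 for WT 8 h against 1 h and 4 for hy5 against WT at 8 h. With no filter it was 1 for hy5 at 8 h, 0 for WT 8 h against 1 h, 1 and 4 for hy5 against WT at 1 h and 8 h, 1 for pif457 against WT at 8 h and 0 for the hy5 response difference at 8 h. That last count was also 0 with RLE size factors, without rRNA and organelle genes, without the rRNA-rich libraries, with the root covariate and with the replicate block.

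With only the groups compared the counts were 6 for WT, 0 for hy5, 0 for pif457 and 13 for hy5 pif457 at 8 h against 0 h, 3 for WT 8 h against 1 h, 1, 0 and 0 for hy5 against WT at 0, 1 and 8 h, 0 for pif457 against WT at 8 h, 6 for hy5 pif457 against WT at 0 h, 0, 0 and 11 for the response differences of hy5, pif457 and hy5 pif457 at 8 h, 1 for that of hy5 pif457 at 1 h and 2 for hy5 pif457 against pif457. With the root covariate they were 2 and 1 for hy5 at 1 h and 8 h, 1 for pif457 at 8 h, 1 and 0 for hy5 against WT at 1 h and 8 h, and 0 for pif457 against WT and for the pif457 response difference at 8 h. Without rRNA-rich libraries they were 1 for WT at 1 h and 2 for WT 8 h against 1 h. With the replicate block hy5 against WT at 1 h had 1 call; in the 3 comparisons whose numbers deviated together, the block left the counts at 4, 0 and 5.

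Leaving out 1 library gave counts of 0 to 1 for WT at 1 h, 1 to 3 for WT at 8 h, 2 to 4 and 0 to 6 for hy5 at 1 h and 8 h, 1 to 8 for pif457 at 8 h, 1 to 4 for hy5 pif457 at 8 h, and 0 for WT 8 h against 1 h. Against WT it gave 1 to 5, 1 to 4 and 1 to 3 for hy5 at 0, 1 and 8 h, 1 to 2 and 0 to 7 for pif457 at 1 h and 8 h, and 0 to 2, 2 to 6 and 4 to 12 for hy5 pif457. Response differences at 8 h ranged over 0 to 4 for hy5, 0 to 3 for pif457 and 3 to 6 for hy5 pif457, and hy5 pif457 against pif457 over 2 to 15. BCH2 in hy5 at 8 h reversed to -1.17 without 8 h replicate 2, and was 0.39 without 8 h replicate 3. CCD7, NCED5, NCED9 and DXL1 are limited by counts of at most 49 in a library.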
